A study of Homo sapiens with 47 samples.

Results

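Chromatin at the genes of 6 nuclear receptors was examined in Ishikawa cells: the estrogen receptors ESR1 and ESR2, the progesterone receptor PGR, the glucocorticoid receptor NR3C1, the mineralocorticoid receptor NR3C2 and the estrogen-related receptor ESRRA. The genes were taken by name from the 20090 protein-coding genes of the annotation. No measured value was a criterion, although earlier results of these data were known. Peaks were collected within 2 kb of every annotated transcription start of each gene, and in the gene body with the 20 kb before it. The 47 libraries are ChIP-seq for 3 targets. H3K27ac, a histone acetylation of active promoters and enhancers, and RNA polymerase II (RNAPII) have 20 libraries each, and the HA tag on the dCas9 fusions has 7.

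Ishikawa is an endometrial adenocarcinoma line. All cells were kept in hormone-depleted medium for at least 5 days, so that the receptors had little or no steroid ligand, and were then transfected with plasmids for a dCas9 fusion and for gRNAs. The fusion was dCas9-VP16(10x), which carries copies of a viral activation domain, or dCas9-p300(core), which carries the catalytic core of the acetyltransferase that deposits H3K27ac. For H3K27ac and RNAPII each construct was combined with 5 gRNA pools in 2 replicates each: Pool 1, Pool 2 and Pool 3 for estrogen receptor binding sites (ERBSs) near MMP17, CISH, FHL2 and HES2, the Adjacent pool for regions beside such sites, and gRNAs for the IL1RN promoter as control. Replicate 1 of the H3K27ac dCas9-VP16(10x) Adjacent libraries also carried the IL1RN gRNAs. For HA, dCas9-VP16(10x) had 2 libraries with the 3 ERBS pools together, 2 with the Adjacent pool and 1 with IL1RN, and dCas9-p300(core) had 2 with the ERBS pools. No pool names any of the 6 receptor genes as a target, every group received a fusion protein, and transfected cells were not clones. The labels do not say whether replicates came from separate cultures, so p-values measure the spread between these libraries, which may be technical. Weaker enrichment in all cells and enrichment in fewer cells cannot be told apart.

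Steroid receptors are transcription factors switched on by small lipid-soluble hormones. ESR1 and PGR are the classic pair of the endometrium, where estrogen acting through ESR1 drives proliferation and induces PGR, and progesterone acting through PGR opposes it. NR3C1 and NR3C2 answer to corticosteroids, and ESRRA resembles the estrogen receptors but has no known natural steroid ligand and controls genes of energy metabolism.

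The libraries differed in how many peaks were called, which touches every count below. The 10 H3K27ac lists of dCas9-VP16(10x) held 16463 to 32052 peaks except Pool 3 replicate 1 with 5322. Among those of dCas9-p300(core), the Adjacent libraries and IL1RN replicate 1 held 16457 to 24280, and the other 7 held 1805 to 10532. RNAPII lists held 16041 to 40757 peaks, and HA lists 4785 to 30740 for dCas9-VP16(10x) but 154 and 141 for dCas9-p300(core). Read depth is unknown. In some lists the peak names begin with 1 of 2 numbers, here called prefix A and prefix B, and the labels do not say what the number stands for. For H3K27ac, prefix A held 5 dCas9-VP16(10x) and 6 dCas9-p300(core) libraries and the others had no such number. For RNAPII all dCas9-p300(core) libraries had prefix A, whereas 7 dCas9-VP16(10x) libraries had prefix B and 3 had none, so construct and prefix cannot be told apart. The peak names of H3K27ac dCas9-VP16(10x) Pool 1 replicate 2 carry the letter used for p300, which puts its construct label in doubt. The 2 HA libraries of dCas9-VP16(10x) with ERBS pools were treated as 1 where libraries are compared, since replicate 2 keeps duplicate reads. Promoters of the epithelial markers EPCAM, KRT8, KRT18, KRT19, CDH1, PAX8, SOX17 and MUC1 had RNAPII peaks in 20 of 20 libraries each, and H3K27ac peaks in 11 to 20. Of immune markers, PTPRC, CD3E and CD14 had none. Of stromal markers, DCN had none, PDGFRA had RNAPII in 3, and HAND2 (H3K27ac 6, RNAPII 12) and COL1A1 (12 and 14) had peaks in many.

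Sequences are shown for the places with the strongest or most regular peaks at ESR1, NR3C1 and NR3C2, the members with a start close to the RNAPII summit and free of upstream exons. All are hg19 reference sequence on the strand of the gene. The ESR1 promoter is chr6:152128645-152128813 (+), ending at the base before an annotated start. The ESR1 intronic element is chr6:152001997-152002296 (+), the 300 bases from the left edge of the HA peak there, in the intron after the 5'-most exon. The NR3C1 promoter is chr5:142784889-142785088 (-), and the NR3C2 promoter is chr4:149363673-149363872 (-). Capitals mark the CCAAT box (CCAAT), the GC box (GGGCGG), the ETS core (CCGGAA) and a single arm of the estrogen response element (GGTCA), each on either strand.
ESR1 promoter: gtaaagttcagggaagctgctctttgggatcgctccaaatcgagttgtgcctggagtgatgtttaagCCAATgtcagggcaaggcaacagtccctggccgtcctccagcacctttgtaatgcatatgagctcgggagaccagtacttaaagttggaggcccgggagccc
ESR1 intronic element: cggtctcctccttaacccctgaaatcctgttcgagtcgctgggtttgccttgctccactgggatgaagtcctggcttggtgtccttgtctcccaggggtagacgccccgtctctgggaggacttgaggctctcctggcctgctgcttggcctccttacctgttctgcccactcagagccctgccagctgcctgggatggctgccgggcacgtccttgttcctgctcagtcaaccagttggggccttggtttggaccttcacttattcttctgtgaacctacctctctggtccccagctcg
NR3C1 promoter: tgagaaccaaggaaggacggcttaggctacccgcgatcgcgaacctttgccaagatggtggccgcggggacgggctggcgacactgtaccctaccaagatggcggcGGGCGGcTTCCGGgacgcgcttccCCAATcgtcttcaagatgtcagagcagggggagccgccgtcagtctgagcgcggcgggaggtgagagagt
NR3C2 promoter: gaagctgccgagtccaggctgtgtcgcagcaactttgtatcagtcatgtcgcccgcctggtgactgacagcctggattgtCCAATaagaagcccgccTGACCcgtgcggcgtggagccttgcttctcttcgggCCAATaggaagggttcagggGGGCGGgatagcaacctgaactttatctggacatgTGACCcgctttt

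The 3 promoters shared a CCAAT box, which 29.2% of the 20090 promoters of 200 bases hold on either strand. The ESR1 stretch of 169 bases has 53.8% GC and no GC box, a motif of 46.5% of all promoters, whereas the NR3C1 stretch (65% GC) and the NR3C2 stretch (57.5% GC) hold 1 GC box each. Only NR3C1 of the 3 has the ETS core, found in 13.8% of promoters. NR3C2 has 2 matches to GGTCA (26.7% of promoters). In the ESR1 intronic element (59.7% GC) none of the 10 motifs searched was found. The other motifs were the full estrogen response element (GGTCANNNTGACC), the ERR site (TCAAGGTCA), the glucocorticoid response element (GNACANNNTGTNC), the AP-1 site (TGANTCA), the forkhead site (TGTTTAC) and the TATA box (TATAAA). Each is in 0.0691% to 9.9% of 4343 distal RNAPII regions of that length, and none was in the 4 sequences.

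ESR1 had a promoter peak in every H3K27ac and every RNAPII library. The gene lies on chr6:151977826-152450754 (+) and has 12 annotated starts in 6 separate windows. Both marks in all libraries sat on 1 of the 6, a window of 7 starts that begins 147740 bp inside the longest gene model. The 5'-most start had no peak in any library. The window 33805 bp inside the gene had H3K27ac in 9 dCas9-VP16(10x) and 6 dCas9-p300(core) libraries but RNAPII in only 2 and 0. The 3 windows further in had RNAPII in 1 or 2 libraries and no H3K27ac.

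H3K27ac enrichment, the height of a peak over its local background, ran in this window of 7 starts from 19.6 through a median of 35.6 to 134.9 in dCas9-VP16(10x) libraries, and from 10.9 through 17.6 to 98.7 in dCas9-p300(core) libraries. The value used for each gene below is its highest peak over all its start windows, which for ESR1 ran from 28.8 through 42.3 to 134.9 and from 11.1 through 17.6 to 98.7. RNAPII enrichment ran from 9.497 through 15.7 to 25.0 and from 10.7 through 24.6 to 40.2. The ranges of the constructs overlapped for both marks. Within a library, ESR1 stood at the 98.5th percentile of all promoters for H3K27ac (SD 2.09, n = 20 libraries), never under the 90.8th, and at the 75.7th for RNAPII (SD 8.48). Genes with no peak count as 0 in these percentiles.

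NR3C1 followed ESR1 in H3K27ac. The gene lies on chr5:142657496-142815077 (-) and has 16 starts in 3 windows. Only the middle window of 11 starts had peaks, and it begins 30189 bp inside the longest gene model. The gene ENSG00000279130 starts in that window too, so that the signal cannot be given to either gene alone. H3K27ac ran from 0 through 28.2 to 155.2 in dCas9-VP16(10x) libraries and from 0 through 12.0 to 108.6 in dCas9-p300(core) libraries. RNAPII ran from 7.56 through 11.5 to 14.5 and from 6.57 through 24.1 to 43.4. No peak of either mark lay elsewhere in the gene or in the 20 kb before it.

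NR3C2 had the highest RNAPII of the 6 relative to other promoters. The gene lies on chr4:148999913-149365850 (-), with 9 starts in 5 windows, and its promoter peaks lay at the 5'-most window. The gene ENSG00000287292 starts in that window too, so that the signal cannot be given to either gene alone. RNAPII ran from 9.15 through 16.9 to 23.02 and from 17.7 through 31.3 to 40.9. H3K27ac was weaker by rank, from 0 through 16.5 to 40.3 in dCas9-VP16(10x) libraries, and in dCas9-p300(core) libraries it was absent from 6 and reached 36.4.

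ESR2, whose product is estrogen receptor beta, lies on chr14:64550950-64804830 (-) and has 10 starts in 4 windows. Its peaks were at the 5'-most window, where the gene ENSG00000214770 starts too, so that the signal cannot be given to either gene alone. H3K27ac ran from 0 through 21.3 to 42.4 and from 0 through 3.67 to 27.9. RNAPII ran from 10.2 through 15.8 to 22.9 and from 13.0 through 20.8 to 33.4. A start 43702 bp inside had H3K27ac in 0 and 1 libraries and RNAPII in 0 and 3.

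ESRRA is a compact gene, chr11:64072969-64084215 (+), with 7 starts in 2 windows. The first window also holds a start of CATSPERZ. H3K27ac ran from 0 through 22.2 to 48.1 and from 0 through 3.89 to 31.1. RNAPII ran from 6.70 through 11.5 to 15.7 and from 10.7 through 23.1 to 30.02. The inner window, 8274 bp from the first start, had RNAPII in 9 and 10 libraries and H3K27ac in 0 and 2.

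PGR was the exception. The gene lies on chr11:100900355-101000544 (-) and shares its 5' window with the antisense gene PGR-AS1. H3K27ac was called in 1 dCas9-VP16(10x) library at 6.27 (Pool 1 replicate 1) and in 3 dCas9-p300(core) libraries at 13.0, 10.2 and 9.23. RNAPII was called in none of the 10 dCas9-VP16(10x) libraries and in 6 of 10 dCas9-p300(core) libraries. Those 6 values were 16.7 and 11.3 for the Adjacent pair, 14.6 for IL1RN replicate 2, 10.6 and 5.57 for replicate 1 of Pool 1 and Pool 2, and 9.87 for Pool 3 replicate 2. The 6 libraries with a PGR peak had RNAPII at 68.4% to 70.5% of all promoters, and the 14 without one at 49.4% to 64.0%. The part of this coverage in the PGR peaks was not tested.

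**Figure D1:**
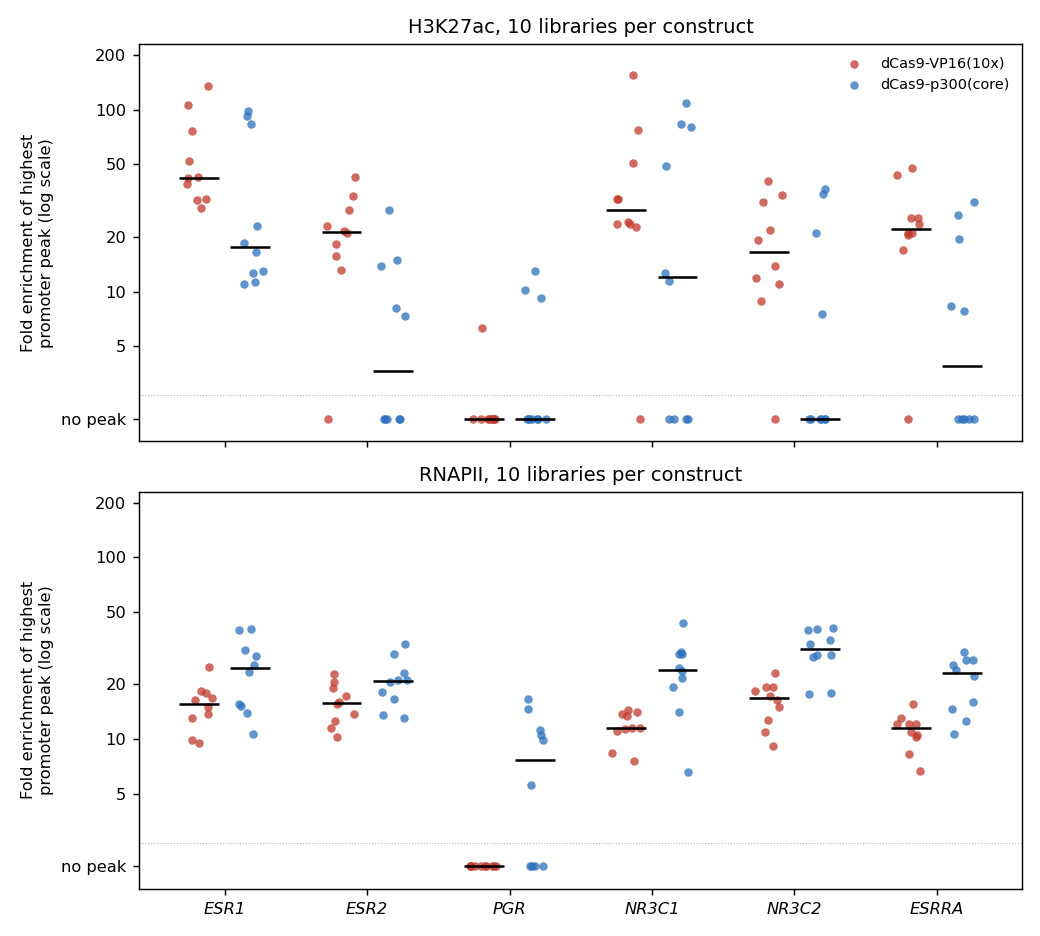
Fold enrichment (log scale) of the highest H3K27ac or RNAPII peak within 2 kb of a start of each gene, 1 point per library, 10 libraries per construct. Bars are medians, points and bars below the dotted line have no peak, and the x axis lists the 6 genes. ESR1 has a peak in all 40 libraries, and PGR has RNAPII in 6 libraries of dCas9-p300(core) and none of dCas9-VP16(10x).

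By mean percentile within a library, the order for H3K27ac was ESR1, NR3C1 (71.9), ESRRA (55.5), ESR2 (53.9), NR3C2 (45.2) and PGR (9.13). The step from ESR1 to NR3C1 was 26.6 with an SD of 43.2 over libraries, and ESR1 was higher in 16 of 20. From NR3C1 to ESRRA the step was 16.3 (SD 38.9), from ESRRA to ESR2 1.65 (SD 27.1) and from ESR2 to NR3C2 8.69 (SD 35.2), all smaller than their spread. The last step, to PGR, was 36.1 (SD 32.7), with NR3C2 higher in 13 libraries and both without a peak in 7.

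For RNAPII the order was NR3C2 (83.6), ESR1 (75.7), ESR2 (74.2), NR3C1 (68.6), ESRRA (64.6) and PGR (11.4). NR3C2 was above ESR1 in 17 of 20 libraries, although the mean step of 7.86 was less than its SD of 12.7. The next 3 steps, 1.55 (SD 14.9), 5.56 (SD 18.7) and 4.01 (SD 10.5), were also within the spread. PGR was the lowest in all 20, at 53.2 (SD 17.5) under ESRRA.

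When each list was reduced to equally many of its strongest peaks, 1805 for H3K27ac, the ESR1 promoter was still marked in 10 and 10 libraries, NR3C1 in 4 and 4 and ESRRA in 1 and 1 of dCas9-VP16(10x) and dCas9-p300(core), and the other 3 in none. With 16041 RNAPII peaks a list, ESR1, ESR2, NR3C1 and NR3C2 had a peak in 10 and 10, ESRRA in 8 and 10, and PGR in 0 and 2.

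The genes most like each member across the 40 libraries, by the root mean square difference of their percentiles, were AP4M1 (7.11), MCM7 (7.18) and KEAP1 (7.74) for ESR1. For NR3C2 they were NIT1 (6.54), PFDN2 (6.54) and ZFP14 (6.57). For NR3C1 they were ATXN7 (9.07), HGSNAT (9.75) and SLC6A9 (10.5), and for ESR2 TTC32 (9.2), RPS3A (9.22) and STN1 (9.36). ESRRA was nearest to ENSG00000270149 and TSTD1 (7.72 each) and RNF139 (10.1).

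Outside promoters, an H3K27ac region with a peak in every library lay inside ESR1, in an intron 23982 bp from the 5'-most start and at -9823 bp from the next one. H3K27ac covered chr6:151996228-152006165, 9938 bases, in 20 of 20 libraries. Its enrichment there ran from 21.97 through 34.0 to 51.5 in dCas9-VP16(10x) libraries and from 8.43 through 13.1 to 27.8 in dCas9-p300(core) libraries. Inside it, at chr6:152001584-152003364, RNAPII was called in 10 dCas9-VP16(10x) libraries, from 8.11 through 15.1 to 17.2, and in 9 dCas9-p300(core) libraries, up to 22.1 with a median of 8.21 over all 10 when the library without a peak counts as 0.

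HA was called at the same place, chr6:152001997-152002318, in 4 of the 5 dCas9-VP16(10x) libraries and in neither dCas9-p300(core) library (3 of 4 with the ERBS pair counted once). The values were 7.99 and 13.8 with ERBS gRNAs, 10.1 with the Adjacent pool (replicate 2) and 8.50 with the IL1RN gRNAs, which shares no target with the other pools. Adjacent replicate 1 had no peak there. The HA lists of dCas9-p300(core) held only 154 and 141 peaks and marked 0.0448% and 0.483% of all promoters. Those of dCas9-VP16(10x) marked 21.3% to 69.7%. The absence with dCas9-p300(core) is to be read against those shares. Outside ESRRA's own start windows HA was also called before that gene, at chr11:64052915-64054164, in 3 of the 5 dCas9-VP16(10x) libraries. Enrichment was 9.92 with the IL1RN gRNAs, 24.1 with the Adjacent pool (replicate 2) and 27.1 with ERBS gRNAs (replicate 2). This region overlaps an exon of GPR137. Start windows of other genes were not considered there, so it is not shown to lie away from promoters.

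For RNAPII the ESR1 promoter was set against this element within each library, without a test. The promoter's enrichment was 0.828 to 2.16 times that of the element in the 10 dCas9-VP16(10x) libraries (median 1.09), and 1.27 to 6.53 times in the 9 dCas9-p300(core) libraries with a peak at the element (median 1.94). The ranges overlapped. For H3K27ac, with the window of 7 starts as the promoter, the ratio ran from 0.381 to 4.84 (median 0.974) and from 0.669 to 10.8 (median 1.03).

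**Figure D2:**
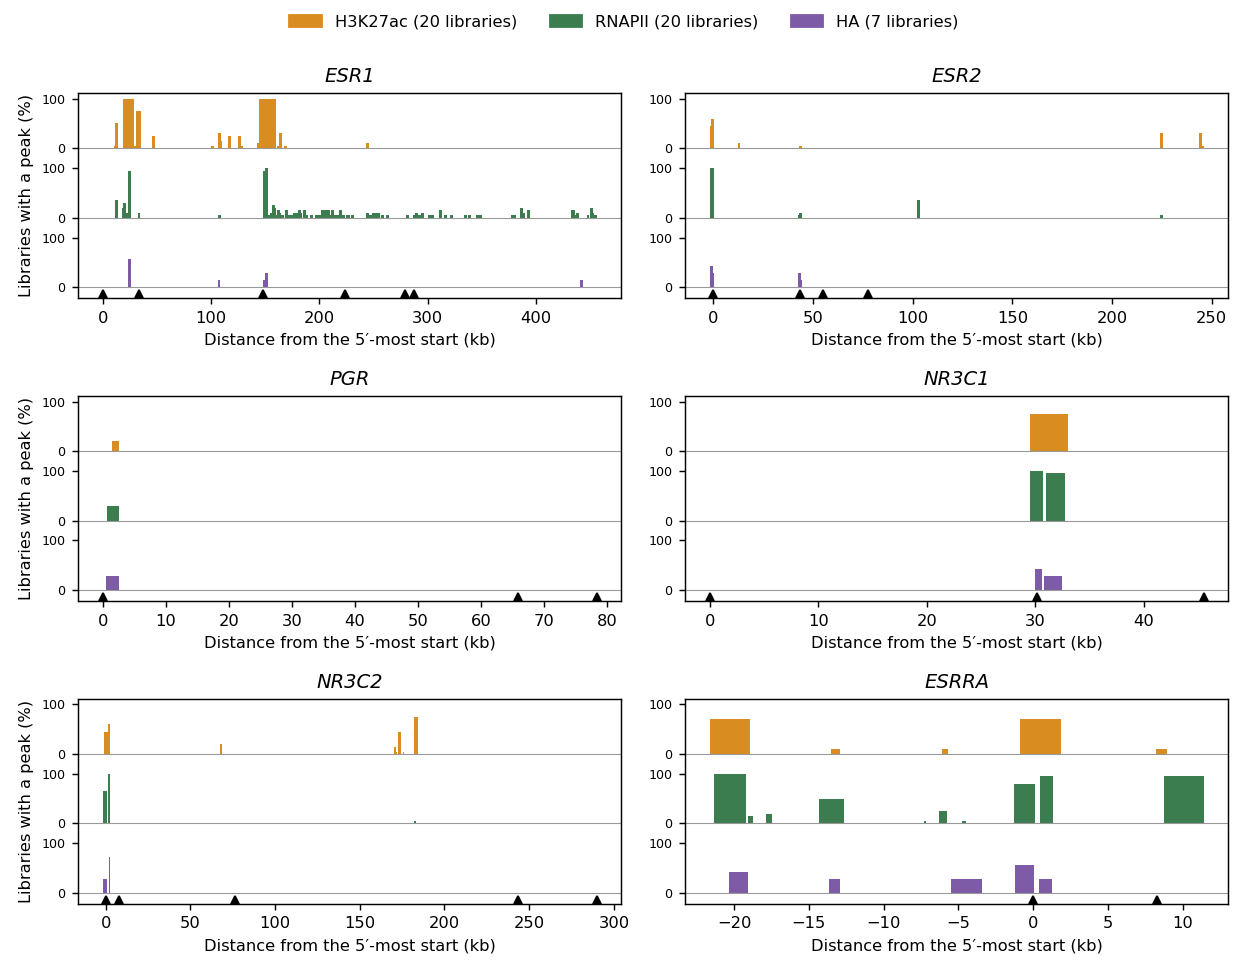
Percentage of libraries (y axis) with a peak along each gene and the 20 kb before it, by distance from the 5'-most start in the direction of transcription (kb, x axis), for 20 H3K27ac, 20 RNAPII and 7 HA libraries. Triangles mark start windows. Both H3K27ac and RNAPII of ESR1 lie at the third window and at the intronic element, RNAPII is scattered over the rest of ESR1, and NR3C1 and PGR have peaks only at a single window.

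ESR1 was also the member with the most RNAPII peaks along its body. Outside promoter windows there were 87 RNAPII regions, of which 50 were seen in 1 library only. Peaks in the body numbered 0 to 4 in the 10 dCas9-p300(core) libraries and 1 to 25 in the 7 dCas9-VP16(10x) libraries of prefix B. The 3 dCas9-VP16(10x) libraries with no number prefix, replicate 2 of Pool 1, Pool 2 and Pool 3, had 51, 41 and 23, whereas replicate 1 of the same pools, of prefix B, had 13, 1 and 2. In these 3 replicate 2 libraries ESR1 ranked first, second and first of 20090 protein-coding genes by the number of such peaks, whereas in dCas9-p300(core) libraries at least 380 genes had more. The same 3 lists held 19772 to 29987 peaks, fewer than several lists with few ESR1 peaks, and 25.6% to 37.4% of their peaks lay outside promoters, against 21.2% to 40.5% with prefix B and 26.6% to 37.6% with prefix A. Bodies of NR3C1, PGR and ESRRA had no such peak in any library, NR3C2 had at most 1 and ESR2 at most 2. The counts thus differed within dCas9-VP16(10x) between lists with and without prefix B. Their part in the difference from dCas9-p300(core) was not tested, since the constructs share no prefix.

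**Figure D3:**
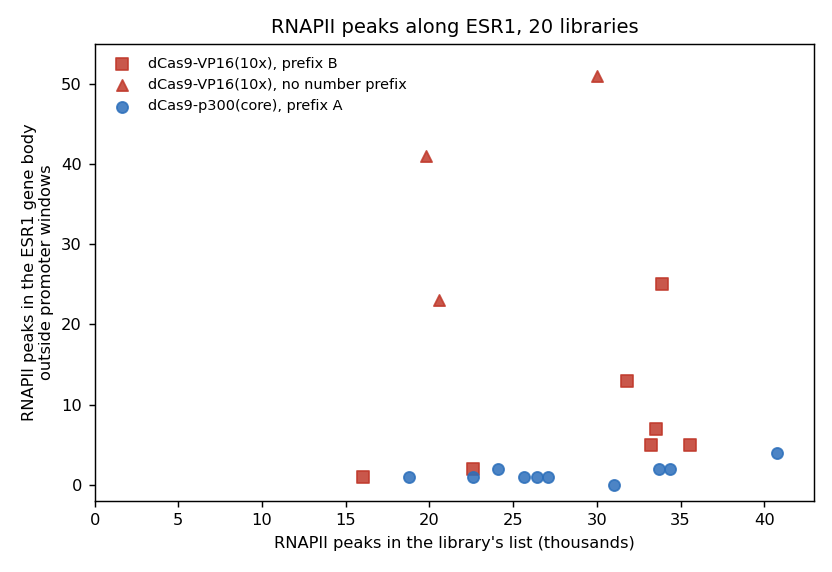
RNAPII peaks in the ESR1 gene body outside promoter windows (y axis) against all peaks in the library's list (16041 to 40757 peaks, x axis), 1 point per library, coloured by construct and shaped by the prefix of the peak names. The 3 libraries with no number prefix have 23 to 51, and the 10 dCas9-p300(core) libraries have 0 to 4.

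NR3C2 had an intronic H3K27ac region at chr4:149181859-149184193, in 10 dCas9-VP16(10x) libraries (10.3 through 19.9 to 28.1) and 5 dCas9-p300(core) libraries (0 through 2.60 to 15.3), and RNAPII was called there in 1 library. ESR1 had further intronic H3K27ac at chr6:151989502-151991221 (8 and 2 libraries) and chr6:152141019-152143151 (6 and 0). H3K27ac in the 3' part of ESR2, at chr14:64559851-64560911 and chr14:64579501-64580563 (6 and 0 libraries each), overlapped exons of SYNE2, a gene on the same stretch. Before ESRRA, where BAD and GPR137 lie, RNAPII was called in 10 and 10 libraries at chr11:64051567-64053692, and H3K27ac in 9 and 5 at chr11:64051460-64054141.

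H3K27ac in the ESR1 window of 7 starts ranged from 16.6 to 134.9 in the 11 libraries of prefix A, and from 10.9 to 39.0 in the 9 with no number. Of the 11, 5 lay between 16.6 and 42.6, and the other 6 stood above all libraries. The highest values, from 76.5 to 134.9, came from IL1RN replicate 1 and an Adjacent library of both constructs, the other dCas9-p300(core) Adjacent library and dCas9-VP16(10x) Pool 1 replicate 1. These 6 libraries also had the highest values at NR3C1, from 50.7 to 155.2, and 4 of them were those with H3K27ac at PGR. In them the ESR1 promoter was 2.28 to 10.8 times its intronic element, against 0.381 to 1.53 times in the other 14. The 6 were set apart by an ESR1 promoter enrichment over 70, which is also the numerator of this ratio. The gap in the ratio thus follows in part from that choice and is a description. The part of the prefix in these values was not tested.

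The constructs were compared with all gRNA pools together. Enrichment was divided by the library's mean over the promoters marked in all libraries of the antibody (485 for H3K27ac, 8851 for RNAPII). A pseudocount of 0.1 was added, and differences are on that log2 scale, which understates differences between low values. A gene with no called peak enters as 0 whatever its signal, so differences can also be overstated where a peak is missed. For H3K27ac, limma called 40.8% of 12790 promoters higher with dCas9-VP16(10x) and 0% lower, and the median promoter differed by 1.02. Of the 5 members tested, 3 were called higher and none lower, a share to be read against that background. They were ESRRA (log2 difference 1.34, SE 0.491, adjusted p = 0.0368), ESR2 (1.26, SE 0.444, adjusted p = 0.0319) and NR3C2 (1.24, SE 0.426, adjusted p = 0.0288). NR3C2 had H3K27ac in 9 dCas9-VP16(10x) and 4 dCas9-p300(core) libraries. It passed the minimum of 5 libraries with a peak only through dCas9-VP16(10x) libraries, so its values are a description.

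NR3C1 differed by 0.72 (SE 0.673, adjusted p = 0.381, 95% interval -0.68 to 2.12). ESR1 differed by 0.06 (SE 0.315, adjusted p = 0.889, interval -0.59 to 0.72). PGR, with peaks in 4 libraries, was under the minimum of 5 and not tested.

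These calls were not made once the short lists were left out, a setting that also mixed construct with gRNA pool. The dCas9-p300(core) libraries kept were the Adjacent pair and IL1RN replicate 1, with none of the ERBS pools. Those kept of the other construct came from all pools. The part of list length and of gRNA pool in the loss of calls was not tested. Among lists of over 16000 peaks only (9 against 3 libraries), a setting added after the values were seen, 0 of 12790 promoters were called by limma (2726 at an unadjusted p under 0.05) and the median was -0.316. There ESR2 differed by 0.76 (adjusted p = 0.233), ESRRA by 0.45 (0.326) and NR3C2 by -0.20 (0.616). Within prefix A limma called no promoter (289 at an unadjusted p under 0.05, median 0.328), and ESR2 differed by 0.96, ESRRA by 0.64 and NR3C2 by 0.34. Within libraries with no number the median was 2.05, ESRRA (2.20), NR3C1 (3.19) and NR3C2 (2.48) were called, and ESR2 (1.47, adjusted p = 0.105) was not. There the 4 dCas9-p300(core) lists held 1805 to 4346 peaks, none of them at NR3C1, and the 5 dCas9-VP16(10x) lists held 24890 to 32052. Both prefix settings used 1 mean per construct, without the gRNA pools. The part of list length in the calls without a number was not tested.

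For RNAPII, 7.16% of 13999 promoters were called higher with dCas9-VP16(10x) and 8.47% lower, and the median was -0.0586. None of the 6 members was called higher. PGR, with no peak in dCas9-VP16(10x) libraries, passed the filter on low values only through dCas9-p300(core) libraries, so it could enter the test only by differing, and its values are a description. Its log2 difference was -1.29 (SE 0.386, adjusted p = 0.0451). The adjusted p was above 0.05 when any of 16 of the 20 libraries was left out, and ran from 0.00955 to 0.0944 over the 20. By Fisher's exact test on presence, 6 of 10 against 0 of 10 gave p = 0.0108 and adjusted p = 0.036, where 30.1% of 2545 genes were called. With only peaks of a -log10 p of at least 20, PGR had 5 against 0 (exact p = 0.0325, adjusted p = 0.0727).

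None of the other 5 members was called between constructs in RNAPII. The differences were 0.30 for ESR2 (95% interval -0.03 to 0.63), 0.14 for ESR1 (-0.13 to 0.40), -0.12 for ESRRA (-0.31 to 0.06), -0.19 for NR3C1 (-0.46 to 0.08) and -0.20 for NR3C2 (-0.42 to 0.03), with adjusted p from 0.180 to 0.470. Without the division by the library mean the median of all promoters moved to -0.742, ESR1 and ESR2 became -0.55 and -0.36, and ESRRA (-0.81, adjusted p = 0.0202), NR3C1 (-0.88, 0.0246) and NR3C2 (-0.90, 0.0132) were called lower, each close to that median.

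**Figure D4:**
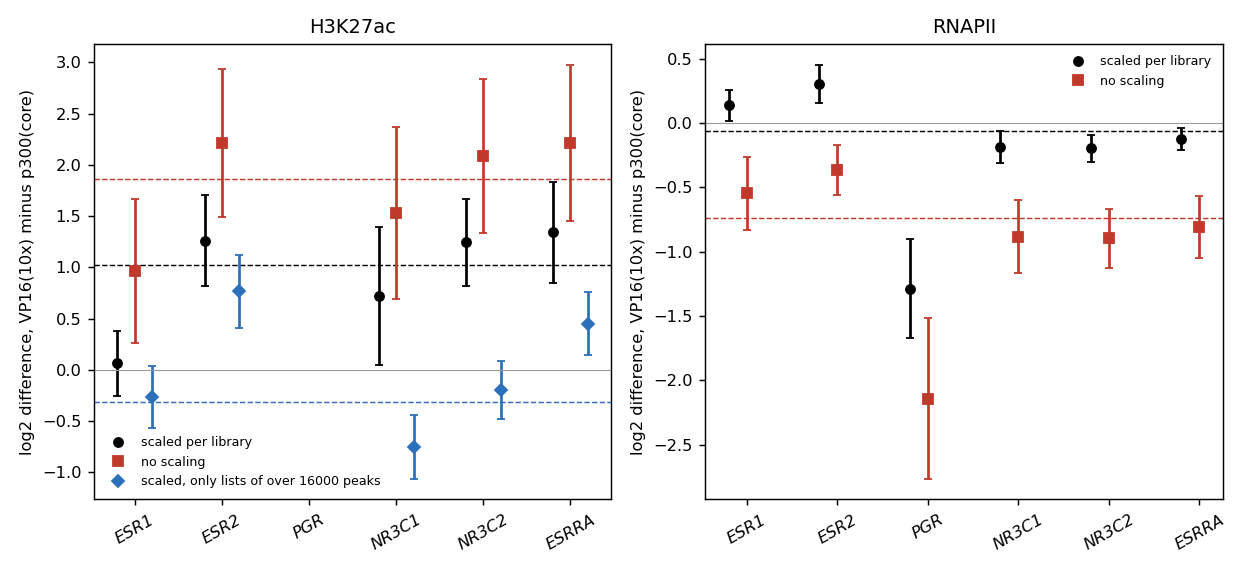
Log2 difference between constructs at each member's promoter (points, with SE bars) for H3K27ac and RNAPII, scaled per library, without scaling and, for H3K27ac, among lists of over 16000 peaks, where NR3C2 and NR3C1 turn negative. Dashed lines are the median of all promoters under the same setting, and PGR lies at -1.29 for RNAPII and was not tested for H3K27ac.

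Presence of H3K27ac differed between constructs for 0.278% of 10073 genes by Fisher's exact test and for none of the 4 members tested. NR3C2 was marked in 9 against 4 libraries (exact p = 0.0573, adjusted p = 0.109), ESR2 and ESRRA in 9 against 5 (adjusted p = 0.208) and NR3C1 in 9 against 6 (adjusted p = 0.388).

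Among regions, limma called 43.8% of 19526 H3K27ac regions higher with dCas9-VP16(10x) and 0.0563% lower, and 16.1% of 29192 RNAPII regions higher and 18.1% lower. The ESR1 intronic element was not called for H3K27ac (log2 difference 0.28, SE 0.387, adjusted p = 0.572) but was called higher for RNAPII (1.14, SE 0.267, adjusted p = 0.00876). Without scaling the RNAPII difference was 0.72 (adjusted p = 0.126). At the ESR1 promoter the RNAPII region around the main starts, chr6:152127928-152130902, differed by 0.13 (adjusted p = 0.526), and the region before it, chr6:152125499-152127651, by 0.96. The NR3C2 intronic region was called higher for H3K27ac (1.56, SE 0.487, adjusted p = 0.0177). RNAPII before the NR3C2 start, chr4:149364725-149367075, was seen in 4 dCas9-VP16(10x) against 9 dCas9-p300(core) libraries, and in a region before ESRRA at KCNK4, chr11:64058367-64060019, in 1 against 9. Both passed the filter only through dCas9-p300(core) libraries, so no test is given.

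Libraries with Pool 1, Pool 2 or Pool 3 were compared with the IL1RN control of the same construct to ask whether gRNAs for ERBSs moved the receptor genes. No member was called for either mark in either construct. For H3K27ac the differences ran from -0.99 (NR3C1, 95% interval -3.56 to 1.57) to 0.14 (ESR2) with dCas9-VP16(10x), and from -1.86 (ESR2, adjusted p = 0.497 by limma) to -0.19 (ESR1) with dCas9-p300(core). For RNAPII they ran from -0.05 to 0.04 and from -0.25 to 0.19, and the intervals of the members other than PGR reached at most 0.85 in either direction. Among all promoters, 0% and 0% were called for H3K27ac (18 and 746 at an unadjusted p under 0.05 by limma), and 0.193% and 0% for RNAPII (824 and 800). No member was called in the test of the difference between constructs in this contrast.

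HA lists marked 21.3% to 69.7% of all promoters with dCas9-VP16(10x) and 0.0448% and 0.483% with dCas9-p300(core), and receptor promoters had peaks in the former and none in the latter, a count to be read against those shares. NR3C2 had a peak in all 5 of its libraries, ESRRA in 4, NR3C1 and ESR2 in 3, and ESR1 and PGR in 2, with the ERBS pair counted as 2 libraries. Every member value in the long lists was above those in the short lists. Adjacent replicate 1 (NR3C2 6.60), ERBS replicate 1 (ESRRA 7.93, NR3C2 6.57) and IL1RN (ESRRA 9.24, ESR2 7.84, NR3C2 7.42, NR3C1 6.73) held 4785 to 8149 peaks. Adjacent replicate 2 and ERBS replicate 2, with 25109 and 30740 peaks, had all 6 members, from 12.7 to 25.4 and from 10.7 to 30.9. Between these long lists, the shorter was higher at ESR1, PGR and NR3C1 and lower at ESR2, NR3C2 and ESRRA. The part of list length and of duplicate reads in these peaks was not tested.

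The other 42 genes of the nuclear receptor family gave 27 that could be tested for H3K27ac. Of the 27, 11 were called higher with dCas9-VP16(10x), against 40.8% of all promoters tested, and none lower. Their median was 1.02 against 1.02 for all promoters. Those with the smallest adjusted p were NR4A1, an immediate early orphan receptor (1.60, adjusted p = 0.0100), the thyroid hormone receptor THRA (1.61, 0.0100), the vitamin D receptor VDR (1.48, 0.0102) and the oxysterol receptor NR1H2 (1.66, 0.0108). NR4A1, with H3K27ac in 10 dCas9-VP16(10x) and 3 dCas9-p300(core) libraries, THRA (9 and 3) and VDR (9 and 2) passed the filter only through dCas9-VP16(10x) libraries. For RNAPII, 1 of 27 was called higher, NR1H2 (0.33, adjusted p = 0.0267), against 7.16% of all promoters tested. Another 4 were called lower, against 8.47%, and the median was -0.196 against -0.0586 for all promoters. The 4 were RORA (-1.87, 0.00554), the heme receptor NR1D2 (-0.46, 0.0124), the adipocyte regulator PPARG (-1.63, 0.0173) and PPARD (-0.40, 0.0259). PPARG, with RNAPII in 0 dCas9-VP16(10x) and 7 dCas9-p300(core) libraries, and RORA, with 4 and 9, passed the filter only through dCas9-p300(core) libraries. Of the close kin of ESRRA, ESRRB had H3K27ac in 0 and 1 libraries and RNAPII in 0 and 4 of dCas9-VP16(10x) and dCas9-p300(core), and ESRRG had none.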

How the data were processed

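The authors deposited 1 narrowPeak list per library, with each peak's enrichment as a fold ratio over background and the -log10 of its p-value and q-value. Per the labels and the submitters' processing notes, reads were aligned to hg19 with Bowtie 1.1.2 and handled with SAMtools, bedtools and MACS2 2.1.0.20140616. Peaks were called per library, and the lowest deposited -log10 p was 10.0. A table of 23 regions was not used here.

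Peaks were assigned to GENCODE 44 genes on hg19 by an overlap of at least 1 bp, with Python 3.11.15. A gene's value was its highest peak's fold enrichment within 2 kb of any start, or 0. Genes or merged regions with a peak in at least 5 of 20 libraries were fitted with limma 3.58.1 in R 4.3.3, with 1 mean per construct and pool (10 residual degrees of freedom), and p-values were adjusted over all of them by the Benjamini-Hochberg method at 0.05. Presence in 5 to 15 libraries was tested with the two-sided Fisher's exact test. The fit was tested on simulated data.

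The members and lists were chosen with earlier results of these data known. All 6 members were named. Of other nuclear receptors, up to 4 with the smallest adjusted p, ESRRB and ESRRG were named, with 3 genes most like each member. Up to 3 regions outside the member's own start windows were named per member and antibody. Other regions named (at the ESR1 and NR3C2 promoters and the HA site before ESRRA) were chosen after their values were seen. Some genes of the lists are not reported here. Sequences came from the hg19 reference. Alternatives covered scaling, pseudocount, filter, window, threshold, block and left-out libraries, and 3 were added after seeing the data.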

Additional observations from a re-analysis of the deposited data

Results flagged for a closer look

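Single libraries stood far from the others of their construct and antibody in 6 cases, by the gap to the nearest library divided by the whole range. Chance flags about 1 in 20 groups of normally distributed values, a rate that does not hold where most libraries have no peak. HA dCas9-VP16(10x) Adjacent replicate 2 stood apart at the promoters of ESR1 (14.68), PGR (18.52) and NR3C2 (19.77, next 7.42), among 4 libraries. Its list was also the longest of those 4. At ESR1 and PGR the next value was 0 (no peak), so the gap was the whole range. ERBS replicate 2, left out here as part of the ERBS pair, had 12.92, 10.73 and 30.28 at ESR1, PGR and NR3C2, so Adjacent replicate 2 did not stand alone. For H3K27ac, dCas9-p300(core) Adjacent replicate 1 was highest at ESR2 (27.91), dCas9-VP16(10x) Pool 1 replicate 1 was the only library of its construct with a peak at PGR (6.27), and dCas9-VP16(10x) IL1RN replicate 1 was highest at NR3C1 (155.2, next 77.0).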

How the results depend on the processing

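For H3K27ac between constructs, 5214 promoters were called, and 27 of 34 alternatives stayed within 1.5 times of that. Lists of over 16000 peaks and libraries of prefix A alone gave 0 each, libraries with no number prefix gave 8591, and leaving out 1 library gave 2943 to 7913. Those with no number prefix set dCas9-p300(core) lists of at most 4346 peaks against dCas9-VP16(10x) lists of at least 24890. NR3C2 turned to -0.20 among the long lists, where construct and gRNA pool were mixed. H3K27ac regions went from 8561 to 695 (long lists), 27 (prefix A) and 4311 to 11410 (1 library left out). Presence of H3K27ac went from 28 to 0 with equally many peaks per list. RNAPII promoters went from 2189 to 7725 without scaling, where 219 were higher and 7506 lower against 1003 and 1186, to 3595 with 1 mean per construct, to 1275 with the dCas9-VP16(10x) IL1RN pair as 1 library, and to 1154 to 4520 with 1 library left out. RNAPII regions went from 10008 to 5585 with that pair as 1 and to 5060 to 12097. For ERBS pools against IL1RN, RNAPII with dCas9-VP16(10x) went from 27 to 13 and 43 (pseudocounts 0.5 and 0.02), 16 (5'-most start), 13 (pair as 1) and 13 to 128. With dCas9-p300(core), leaving out 1 library took the counts from 0 to as many as 2264 for H3K27ac and 1906 for RNAPII (lowest 0). The cause of these shifts was not tested, beyond the loss of libraries.

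Replicate numbers were not taken to pair the libraries, since over 45 pairs of groups the correlation of replicate deviations ran from -0.521 to 0.805 for H3K27ac (median 0.122, over 0.1 in 26) and from -0.461 to 0.607 for RNAPII (median -0.032, over 0.1 in 9). In 8 of 10 H3K27ac groups replicate 1 had prefix A and replicate 2 no number, so that the block there partly follows the prefix. The replicate block gave 6049 H3K27ac and 2064 RNAPII promoters between constructs and 24 for ERBS pools with dCas9-VP16(10x) and RNAPII, and PGR was not called (adjusted p = 0.0543). PGR was not called either with a pseudocount of 0.02 (0.0546), a -log10 p of at least 20 (0.0558) or the IL1RN pair as 1 (0.0829). A batch term could not be fitted for RNAPII between constructs, and with the 5'-most start alone ESR1 and NR3C1 could not be tested. With depth unknown, absence of a peak does not show absence of signal.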
